A study of Mus musculus with 6 samples.

Results

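Class A scavenger receptors are a family of 5 genes here, Scara3, Scara5, Colec12, Msr1 and Marco, taken by gene name from a table of 55291 genes. They were read in bulk RNA of shaved dorsal skin from 3 mice carrying the tight skin mutation (TSK) and from 3 WT (wild-type) littermates, all on the C57BL/6 background, labelled as 6 to 8 weeks old, with 1 library per mouse. TSK mice carry an internal duplication in Fbn1, which encodes fibrillin-1 of the microfibrils, in every cell, so no promoter or cell type restricts the mutation. The sex is female in the labels but male in the study's methods, and the Y-linked gene Ddx3y was at 56.7 to 72.8 CPM (counts scaled to 1000000 per library) in all 6 libraries while Xist was at 2.57 to 4.58 CPM. The family was chosen by the TSK against WT differences of Scara3 and its relatives, which were already known, so their differences between genotypes are described without a test.

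Scavenger receptors are cell surface proteins that bind and take up modified lipoproteins, microbes, dying cells and other polyanionic cargo. Those of class A are trimers that cross the membrane once and carry a collagen-like stalk outside the cell, in which glycine recurs as the first residue of each Gly-X-Y triplet. Msr1 and Marco, the founding members, are known from macrophages. Scara5, a ferritin receptor, and Colec12, a receptor with a C-type lectin head, are known mainly from stromal, epithelial and endothelial cells, and Scara3 is known as a gene induced by oxidative stress.

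In the mm10 (GRCm38) genome, Scara3 (chr14:65919394-65953935, minus strand) and Scara5 (chr14:65666403-65764826, plus strand) lie on chromosome 14, 155 kb apart. Msr1 lies at chr8:39581685-39642673 and Marco at chr1:120474538-120505024, both on the minus strand. Scara3, Scara5, Msr1 and Marco overlapped 0 other annotated genes, and none of their transcripts shared a stretch of 50 bases or more at 95% identity with another gene, 50 bases being the read length.

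The coding sequences show the shared stalk and how Scara3 differs from its relatives. The first 20 Gly-X-Y triplets of the longest run in 4 of the genes are shown because the run is the feature that defines the class. They were read 5′ to 3′ from GENCODE M21 transcripts, with the glycine codon that opens each triplet in capitals. Each stretch spans at least 1 intron in the genome (Scara3 chr14:65921010-65930798 minus, Scara5 chr14:65731195-65740387 plus, Msr1 chr8:39608131-39619878 minus, Marco chr1:120488202-120492068 minus strand).
Scara3: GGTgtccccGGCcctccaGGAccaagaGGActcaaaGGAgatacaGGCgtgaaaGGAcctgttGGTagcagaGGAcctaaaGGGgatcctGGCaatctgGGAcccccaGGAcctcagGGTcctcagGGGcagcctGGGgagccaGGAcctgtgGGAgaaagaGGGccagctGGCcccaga
Scara5: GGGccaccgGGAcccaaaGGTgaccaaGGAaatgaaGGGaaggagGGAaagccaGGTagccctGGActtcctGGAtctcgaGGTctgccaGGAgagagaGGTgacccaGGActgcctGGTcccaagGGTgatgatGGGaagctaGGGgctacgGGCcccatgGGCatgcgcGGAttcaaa
Msr1: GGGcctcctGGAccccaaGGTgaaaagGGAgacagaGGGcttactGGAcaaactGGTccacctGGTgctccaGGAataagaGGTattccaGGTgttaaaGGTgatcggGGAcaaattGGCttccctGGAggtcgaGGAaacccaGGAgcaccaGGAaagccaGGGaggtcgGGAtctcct
Marco: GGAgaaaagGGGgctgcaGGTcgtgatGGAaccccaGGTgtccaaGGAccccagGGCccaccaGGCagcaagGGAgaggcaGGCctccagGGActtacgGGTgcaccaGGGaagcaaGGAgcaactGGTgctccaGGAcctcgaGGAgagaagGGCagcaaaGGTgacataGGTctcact

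The longest uninterrupted run held 49 triplets in Scara3, 25 in Scara5, 49 in Colec12, 25 in Msr1 and 81 in Marco. What follows the run sets Scara3 apart. Its run ended at codon 603 of 606, so 3 codons were left, against 111 codons after the run in Scara5, 107 in Msr1, 99 in Marco and 153 in Colec12. In Scara5, Msr1 and Marco that end is known to fold into a cysteine-rich (SRCR) domain, and in Colec12 into the lectin head. The last 6 triplets of Scara3 and the codons up to the stop are shown for this reason, again with the first codon of each triplet in capitals.
Scara3 end: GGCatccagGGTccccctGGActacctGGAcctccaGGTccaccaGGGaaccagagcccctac

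**Figure D1:**
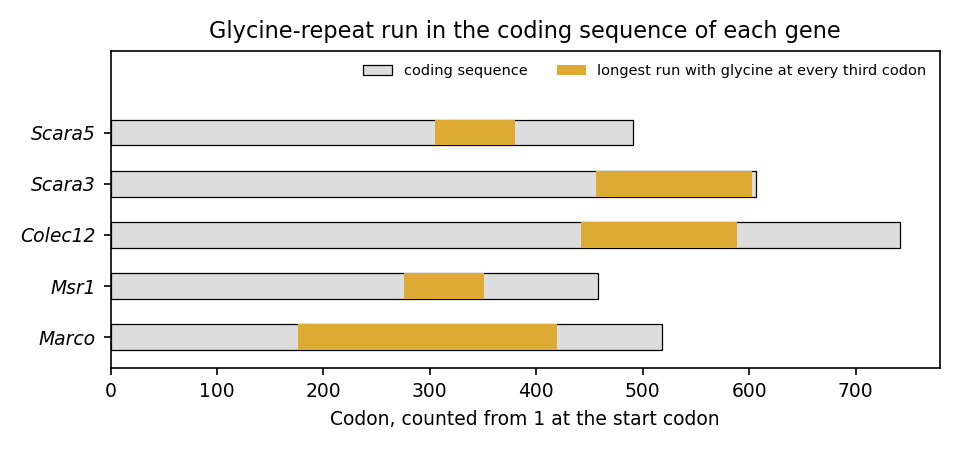
Coding sequence of each gene in codons from the start codon (horizontal axis), with the longest Gly-X-Y run in yellow. The run of Scara3 reaches codon 603 of 606, whereas 99 to 153 codons follow it in the other genes.

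Library totals ranged from 17561453 to 19219814 counts, and the totals of the genotypes overlapped. Fbn1 was at 262 to 289 CPM in WT and at 1538 to 2284 CPM in TSK, so the mutated gene separated the labelled groups. Skin markers were present, among them Krt14 of basal keratinocytes (950 ± 398 CPM in WT and 727 ± 333 CPM in TSK, SD, n = 3) and Col1a1 of fibroblasts. Adult skeletal muscle genes took 172200 to 251300 CPM in WT and 148500 to 170300 CPM in TSK. With TMM scaling, which corrects totals for very abundant transcripts, the 19971 tested genes had a median log2 fold change of -0.03. Scaling by library size alone placed that median at 0.25. Log2 fold changes below are TSK minus WT after TMM scaling, unless stated otherwise.

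To compare the members with each other, the deposited CPM was divided by the length of the merged exons, which gives CPM per kilobase (kb). In WT skin Scara5 was the most abundant in all 3 libraries, at 2.61 ± 0.276 CPM per kb (SD, n = 3). Colec12 followed with 1.84 ± 0.373 and Scara3 with 1.61 ± 0.216 CPM per kb. These neighbours did not differ beyond their spread, since Scara3 was above Colec12 in WT 1 and below it in WT 2 and WT 3. Msr1 was lower, at 0.722 ± 0.376 CPM per kb, and its WT range of 0.411 to 1.14 did not reach the lowest Colec12 value of 1.43. Per length of the longest transcript this did not hold, since Msr1 in WT 1 (1.99) was then above Scara3 (1.84) and Colec12 (1.55). Marco was at 0.0867 ± 0.0512 CPM per kb.

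In TSK skin the order was Scara5, Scara3, Colec12, Msr1 and Marco in each of the 3 libraries. Scara5 was at 13.6 ± 5.57 and Scara3 at 10.5 ± 2.24 CPM per kb, and their ranges overlapped (8.34 to 19.4 and 8.24 to 12.7). Per length of the longest transcript the ranges did not overlap, with Scara5 at 13.4 to 31.2 and Scara3 at 8.24 to 12.7. Colec12 was at 3.70 ± 1.25 and Msr1 at 0.823 ± 0.406 CPM per kb, with no overlap between them. The 5 genes together summed to 6.59 to 7.30 CPM per kb in WT and to 19.7 to 38.5 in TSK. Within that sum the Scara3 share was 21.3% to 25.1% in WT and 33.0% to 41.9% in TSK, and the Scara5 share was 34.8% to 41.1% and 42.4% to 50.4%. The Colec12 share was 19.6% to 32.8% and 12.4% to 13.3%, and the Msr1 share was 6.12% to 15.6% and 2.42% to 3.30%. TSK skin therefore held more class A transcript per length, with a larger part of it from Scara3 and Scara5 and a smaller part from Colec12 and Msr1. In bulk RNA, more or fewer cells of a type and more or less RNA per cell cannot be told apart.

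**Figure D2:**
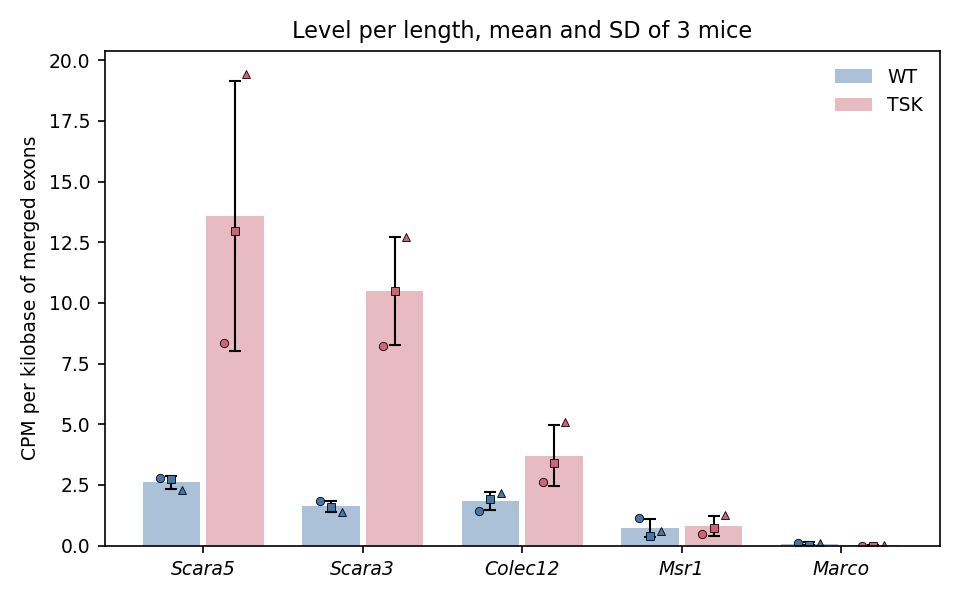
Deposited CPM per kilobase of merged exons (vertical axis, from 0) for each gene in WT and TSK skin. Bars are means, error bars are SD over 3 mice and points are single libraries (circle, mouse 1; square, mouse 2; triangle, mouse 3); Scara5 and Scara3 reach 13.6 and 10.5 in TSK against 2.61 and 1.61 in WT, and Marco stays near 0.

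Scara3 had the highest log2 fold change of the 4 members that passed the low-count filter. Its counts in the order of the mouse numbers were 116, 108 and 92 for WT and 539, 727 and 863 for TSK. As deposited CPM these were 6.61, 5.75 and 5.06 against 29.6, 37.8 and 45.7. The 3 WT libraries lay close together, and the lowest TSK library was over 4 times the highest WT library. The means were 5.81 ± 0.776 and 37.7 ± 8.05 CPM (SD, n = 3), a ratio of 6.50, and the log2 fold change was 2.42 (SE 0.17). Of the 19971 tested genes, 111 had a higher log2 fold change. Leaving out 1 library at a time gave 2.28 (without TSK 3) to 2.55 (without TSK 1).

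Scara5, also on chromosome 14, was higher in TSK by a similar factor but less evenly. Its estimated counts were 297, 316 and 254 in WT and 924, 1519 and 2232 in TSK. The corresponding CPM values were 16.9, 16.8 and 13.98 against 50.8, 79.0 and 118. WT libraries were again tight, whereas TSK 3 was more than 2 times TSK 1. The means were 15.9 ± 1.68 and 82.7 ± 33.9 CPM, a ratio of 5.19, with a log2 fold change of 2.09 (SE 0.27). This moved to 1.76 without TSK 3 and to 2.32 without TSK 1. The CPM of Scara5 divided by that of Scara3 was 2.56 to 2.93 in WT and 1.71 to 2.59 in TSK, so this ratio overlapped between the genotypes.

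Colec12, the receptor with the lectin head, lies on the plus strand at chr18:9707595-9882644. It overlapped 7 annotated pseudogenes, small RNAs and unassigned transcripts, and its own transcript matched others over stretches of up to 417 bases at 95.2% identity, so its count is less certain than those of the other members. Its CPM was 12.5, 16.8 and 18.9 in WT and 22.9, 29.8 and 44.3 in TSK, from estimated counts of 219 to 343 and 416 to 836. The groups did not overlap, and WT 3 and TSK 1 were the closest libraries. The means were 16.03 ± 3.26 and 32.3 ± 10.9 CPM, a ratio of 2.02. Its log2 fold change was 0.70 (SE 0.27) with TMM and 1.01 with library size only. Without TSK 3 it was 0.43, so a single library carried a large part of the difference. On the deposited CPM, Scara3, Scara5 and Colec12 had every TSK library above every WT library, as did 29.1% of all tested genes. They were separated in this way on TMM-scaled CPM too, as were 14.1% of tested genes. For Colec12 that separation was narrow, with WT 3 at 2.44 and TSK 1 at 2.47 TMM-scaled CPM per kb.

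Msr1, the macrophage receptor for modified low-density lipoprotein, showed no such separation. Its counts were 127, 49 and 71 in WT and 55, 88 and 152 in TSK, and its CPM was 7.23, 2.61 and 3.90 against 3.02, 4.58 and 8.06. The highest value of each genotype was more than 2 times its lowest, and the ranges overlapped almost fully. The means were 4.58 ± 2.39 and 5.22 ± 2.58 CPM, and the log2 fold change of -0.06 (SE 0.39) was small beside its error. Its sign depended on the libraries and the scaling, with -0.49 without TSK 3, 0.34 without WT 1 and 0.19 with library size only.

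Marco, known from macrophages of the splenic marginal zone and the lung, was close to the detection limit. It had 4, 1 and 4 counts in WT and 0, 0 and 1 in TSK, and did not pass the low-count filter. Summed over 3 libraries, 9 counts in WT corresponded to 0.165 CPM (exact Poisson 95% interval 0.0755 to 0.313) and 1 count in TSK to 0.0178 CPM (0.00045 to 0.099). The ratio of TSK to WT was 0.108 (exact 95% interval 0.00246 to 0.777). These intervals cover counting error only, not the spread between mice, so they are no test between genotypes. The lowest WT library and the highest TSK library each held 1 count. Fitted in edgeR without the low-count filter, Marco had a log2 fold change of -3.04 (SE 1.29).

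**Figure D3:**
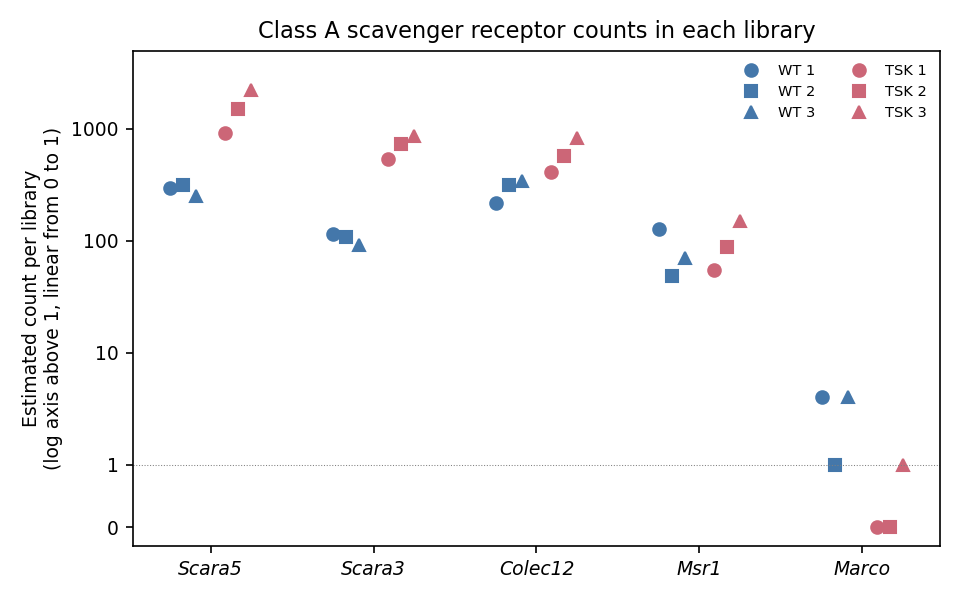
Estimated counts of each gene in each of the 6 libraries (vertical axis, logarithmic above 1 and linear from 0 to 1). TSK points of Scara5, Scara3 and Colec12 lie above all WT points, those of Msr1 are mixed between 49 and 152 counts, and Marco has at most 4 counts in any library.

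To find genes that moved across the 6 libraries like each member, TMM-scaled log2 CPM was centred per gene and the root mean square distance to each member was ranked over 12017 genes with a mean of at least 5 CPM. The ranking is a description, and it includes the genotype difference itself. Nearest to Scara3 were Dpp4, which encodes a cell surface peptidase (distance 0.098), Fbn1 (0.19), Efemp1 and Emilin2, which encode matrix glycoproteins (0.192 and 0.197), and the Wnt ligand Wnt10b (0.203). Dpp4 was at 7.01, 7.13 and 6.32 CPM in WT and 31.2, 42.8 and 54.3 CPM in TSK, close to Scara3 in each library. Scara5 ranked 15 for Scara3, at a distance of 0.259. Nearest to Scara5 were Lrrn4cl (0.07), the complement gene C4b (0.127), the metalloprotease gene Adam33 (0.134), Cd248 (0.136), which encodes endosialin, and Pcolce2 (0.149), which encodes an enhancer of procollagen processing.

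The other members had different companions. Colec12 was nearest to Srpx (0.0729), to Csf1 (0.0925), the macrophage growth factor, and to Loxl2 (0.103), a collagen crosslinking enzyme. Csf1 was at 22.8, 28.1 and 28.1 CPM in WT and 37.3, 45.9 and 74.0 CPM in TSK. Msr1 was nearest to Pou2f2 (0.135), Cd68 (0.171) and Slc11a1 (0.172), the last 2 being a lysosomal glycoprotein and a metal transporter of macrophages. Cd68 was at 6.55 to 16.6 CPM in WT and 7.70 to 24.4 CPM in TSK, highest in WT 1 and TSK 3 as Msr1 was. Scara3 ranked 11919 for Msr1, at a distance of 1.30.

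Because Scara3 and Scara5 lie near each other, the genes around them were read as well. The 3 tested genes between them, Pbk, Esco2 and Ccdc25, had log2 fold changes of -0.12 (SE 0.34), -0.17 (SE 0.22) and -0.22 (SE 0.14), with edgeR adjusted p of 0.89, 0.72 and 0.423. Clu, which encodes clusterin and follows Scara3, was at 76.4 ± 14.7 CPM in WT and 70.6 ± 6.13 CPM in TSK (log2 fold change -0.41, SE 0.20, adjusted p = 0.29). Of the 12 tested neighbours whose start lies within 500 kb of that of Scara3, 1 was called, and of the 11 around Scara5 0 were called. The called gene was Stmn4, a stathmin family gene, which rose from 0.498 ± 0.262 CPM in WT to 2.77 ± 0.38 in TSK (log2 fold change of 2.20 with SE 0.36, edgeR adjusted p = 0.0202). The median log2 fold change was -0.14 around Scara3 and -0.07 around Scara5. The 10 tested neighbours of Colec12 ranged from -0.37 to 0.50, and 0 of them were called.

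The scavenger receptors of the other classes were compared as a list of 21 genes, of which 16 were tested. Over all 19971 tested genes, edgeR called 3.39% at an adjusted p below 0.05, with 542 (2.71%) higher and 136 lower, or 1685 and 93 with library size only. Scarb1, the high-density lipoprotein receptor, rose from 24.3 ± 4.06 CPM in WT to 57.4 ± 6.52 in TSK (log2 fold change of 0.97 with SE 0.12, edgeR adjusted p = 0.0093). Lrp1, a large endocytic receptor for lipoproteins and protease complexes, rose from 378 ± 14.5 to 911 ± 256 CPM (0.98, SE 0.21, adjusted p = 0.0475). These were the 2 genes called higher, and 0 were called lower. The median of the 16 was 0.43 and 10 were above 0, where 47.0% of all tested genes were above 0. That median was 0.29 without TSK 3, 0.84 without WT 2 and 0.71 with library size only. Without WT 3 neither gene was called (adjusted p up to 0.0615 for Scarb1 and 0.177 for Lrp1 over all alternatives), and Lrp1 also lost its call without any other WT library, without TSK 2, without TSK 3, with upper quartile scaling and with the replicate block.

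On the deposited CPM, 8 of the 16 were higher in every TSK library than in any WT library, as were 29.1% of all tested genes. Several of the 8 did not pass the test in edgeR with TMM scaling. Cd163, the haemoglobin scavenger receptor of macrophages, was at 34.4 ± 8.03 CPM in WT and 117 ± 66.3 CPM in TSK (log2 fold change 1.44, adjusted p = 0.082). Mrc1, the mannose receptor, was at 50.6 ± 6.68 and 139 ± 80.9 CPM (1.16, adjusted p = 0.111), and Stab1, stabilin-1, at 67.1 ± 10.1 and 184 ± 86.8 CPM (1.16, adjusted p = 0.0718). Cd36, a fatty acid and oxidised lipoprotein receptor, was at 78.9 ± 7.61 and 268 ± 224 CPM (1.46, adjusted p = 0.153). Cd163, Mrc1, Stab1 and Scarf2 were called with DESeq2, library size only, limma-trend, no low-count filter and the replicate block, and Cd36 with library size only and no filter. On the other side were Megf10 (-0.57, adjusted p = 0.162), Stab2 (-0.45, adjusted p = 0.388) and Clec7a, the beta-glucan receptor dectin-1 (-0.37, adjusted p = 0.762). Cd68 and Scarb2, which are lysosomal, were at 0.04 and -0.11 (adjusted p = 0.968 and 0.706). Scarf2 was at 1.13 (adjusted p = 0.0827), and the remaining Lrp2, Scarf1, Cd44 and Cxcl16 lay between -0.15 and 0.54.

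**Figure D4:**
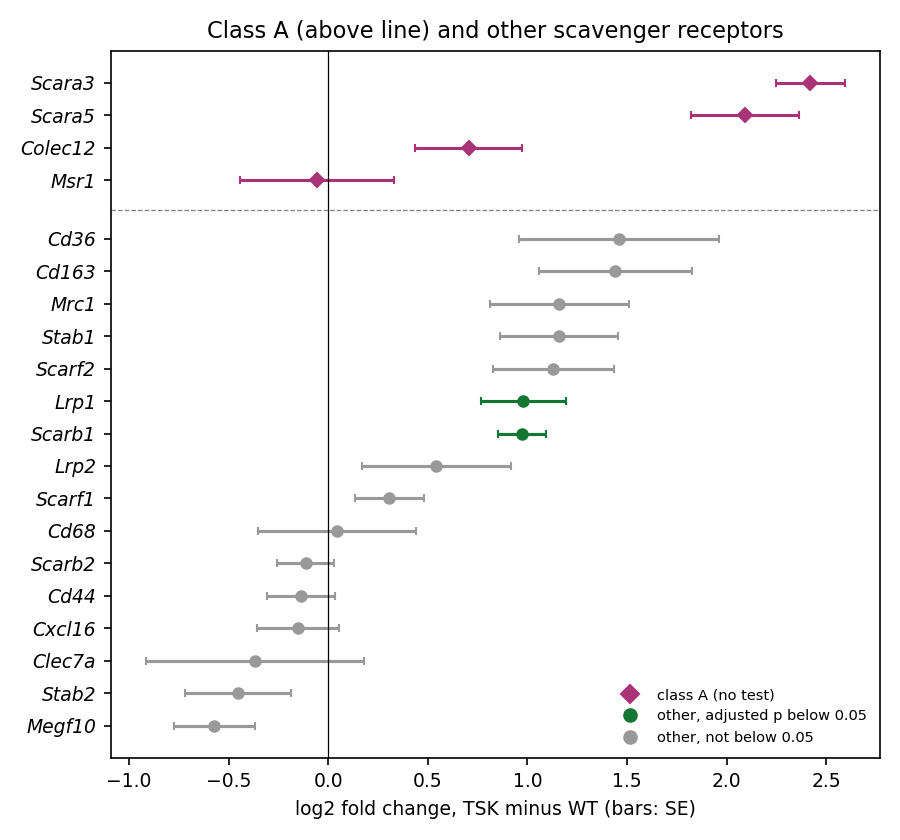
Log2 fold change, TSK minus WT, with SE from edgeR (horizontal axis) for the 4 class A genes that passed the filter (diamonds, no test) and the 16 tested receptors of other classes (circles). Scara3 and Scara5 lie at 2.42 and 2.09, to the right of all receptors of other classes, of which Scarb1 and Lrp1 have an adjusted p below 0.05.

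Genes of related function or structure were read from 4 further lists. Among 14 genes of ferritin and iron handling, the field of Scara5, 2 were called higher and 0 lower. Trf, which encodes transferrin, rose from 35.2 ± 5.98 CPM in WT to 202 ± 107 in TSK (a log2 fold change of 2.24, edgeR adjusted p = 0.0148), and Slc40a1, the iron exporter ferroportin, rose from 6.82 ± 1.397 to 14.7 ± 1.07 CPM (0.85, adjusted p = 0.0266). Fth1, the ferritin heavy chain, was at 508 ± 33.2 and 508 ± 52.9 CPM. The median of this list was 0.14, with 0.07 without WT 1, 0.23 without TSK 1 and 0.41 with library size only. The call of Slc40a1 was lost without WT 2 or WT 3 (adjusted p up to 0.108) and without TSK 1 or TSK 2.

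Among 17 genes of oxidative stress defence, the setting in which Scara3 is known, 1 was called higher and 0 lower. That gene was Sod3, the extracellular superoxide dismutase, which rose from 18.9 ± 3.40 CPM in WT to 71.5 ± 18.9 in TSK (a log2 fold change of 1.61, edgeR adjusted p = 0.0171). The list median was -0.07 and changed sign with the libraries and the scaling used, from -0.19 without TSK 2 to 0.06 without TSK 3 and 0.19 with library size only.

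Over all 19971 tested genes, 3998 had an unadjusted p below 0.05 in edgeR. Of 12 genes of lipoprotein uptake and cholesterol handling, the field of Msr1, edgeR called 0 in either direction (3 had an unadjusted p below 0.05, and DESeq2 called 1 higher). The largest differences in that list were in Lpl, lipoprotein lipase (log2 fold change 1.25, adjusted p = 0.261), and Abca1, the cholesterol exporter (0.68, adjusted p = 0.0598), and the list median of 0.44 ran from 0.25 without WT 2 to 0.67 without WT 1 and was 0.68 with library size only. Of 11 soluble recognition proteins with a collagen domain 5 were tested and 1 was called higher, Fcna, which encodes ficolin A and rose from 3.30 ± 0.253 to 23.8 ± 14.8 CPM (2.55, adjusted p = 0.0185). The median of these 5 genes was 1.01, and 0.43 without TSK 3.

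Cell type markers were read as well, in the same libraries. Summed fibroblast markers were at 6898 to 10520 CPM in WT and 21760 to 49610 CPM in TSK, and all 12 genes were higher in every TSK library than in any WT library on the deposited CPM, as were 29.1% of tested genes. Of these 12, Thy1 was called (log2 fold change 0.72, edgeR adjusted p = 0.0437), and the median was 0.95. The number called depended on the method, with 9 by DESeq2, 10 with library size only or limma-trend, 4 with the replicate block and 0 with upper quartile scaling. Over all tested genes, DESeq2 called 1136 higher, library size only 1685, limma-trend 1771 or 1761, the replicate block 665 and upper quartile scaling 482. Summed macrophage markers were at 279 to 476 CPM in WT and 519 to 1425 CPM in TSK, with TSK 3 the highest. The call of Thy1 was lost without any 1 of the 6 libraries (adjusted p up to 0.116). Of the 14 macrophage genes Lyve1 was called (2.22, adjusted p = 0.0352, but up to 0.134 without any 1 WT library), and the median was 0.90, falling to 0.40 without TSK 3. In that list Aif1 and Fcgr1 were at -1.15 and -1.05 (adjusted p = 0.245 and 0.364), so the markers did not all point one way. No marker of either list was at 0 in all libraries.

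The other marker lists were read in the same way, beside the 3998 of all 19971 tested genes with an unadjusted p below 0.05 in edgeR. Endothelial genes had a median log2 fold change of 0.78 with 2 of 10 called higher, Tek and Vwf. For adipocyte genes the median was 2.71, or 1.52 without TSK 2, and 3 of 9 were called higher, Lep, Plin1 and Cfd. These 3 calls were lost without WT 2 (adjusted p up to 0.171), and those of Plin1 and Cfd also without WT 1. For adult skeletal muscle genes it was -0.80, or -0.50 with library size only, and edgeR called 0 of 16 (11 at an unadjusted p below 0.05). Without WT 1 edgeR called 10 of them lower and 1 higher, and with all libraries DESeq2 called 13 lower and 1 higher. Keratinocyte genes had a median of -0.29, which ran from -0.64 without TSK 1 to -0.12 without WT 1 and was -0.05 with library size only, and 0 of 9 were called by edgeR or DESeq2 (2 at an unadjusted p below 0.05 in edgeR). DESeq2 called 6 of the 14 macrophage, 4 of the 10 endothelial and 6 of the 9 adipocyte genes higher. Over all 20414 genes that DESeq2 tested, it called 1136 higher and 411 lower. Without WT 3 edgeR called 0 genes in each of the 11 lists, for instance 0 of 14 macrophage genes, of which 7 had an unadjusted p below 0.05. In that fit 2884 of all 20665 tested genes had an unadjusted p below 0.05.

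Members were also read against the markers within each library, which does not depend on the scaling between libraries. Per 1000 CPM of fibroblast markers, Scara3 was at 0.958, 0.617 and 0.481 in WT and at 1.34, 1.74 and 0.922 in TSK. The groups overlapped, with means of 0.685 ± 0.246 and 1.33 ± 0.408. Scara5 overlapped as well (1.86 ± 0.566 and 2.77 ± 0.746). Colec12 was lower in all TSK libraries on this scale, with 1.81, 1.80 and 1.79 against 1.03, 1.37 and 0.893. The collagen genes Col1a1, Col1a2 and Col3a1 made up 88.8% to 94.4% of the fibroblast sum, so this scale is close to a ratio to those 3 genes.

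Per 1000 CPM of macrophage markers, Msr1 was at 15.2, 9.36 and 9.56 in WT and at 5.83, 6.42 and 5.66 in TSK. It was thus lower in every TSK library relative to this sum, although its CPM overlapped. Lyz2, Mrc1, Cd163 and Csf1r made up 47.9% to 56.2% of the sum in WT and 57.2% to 60.1% in TSK. Relative to Cd68 alone, a denominator chosen after seeing the data, Msr1 overlapped between the genotypes, with ratios of 0.307 to 0.436 in WT and 0.33 to 0.393 in TSK. Scara3 was at 12.4 to 20.6 in WT and at 32.1 to 57.1 in TSK, and Scara5 at 34.2 to 60.4 and 83.0 to 111. The part of changed cell makeup in the differences of the members was not tested.

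**Figure D5:**
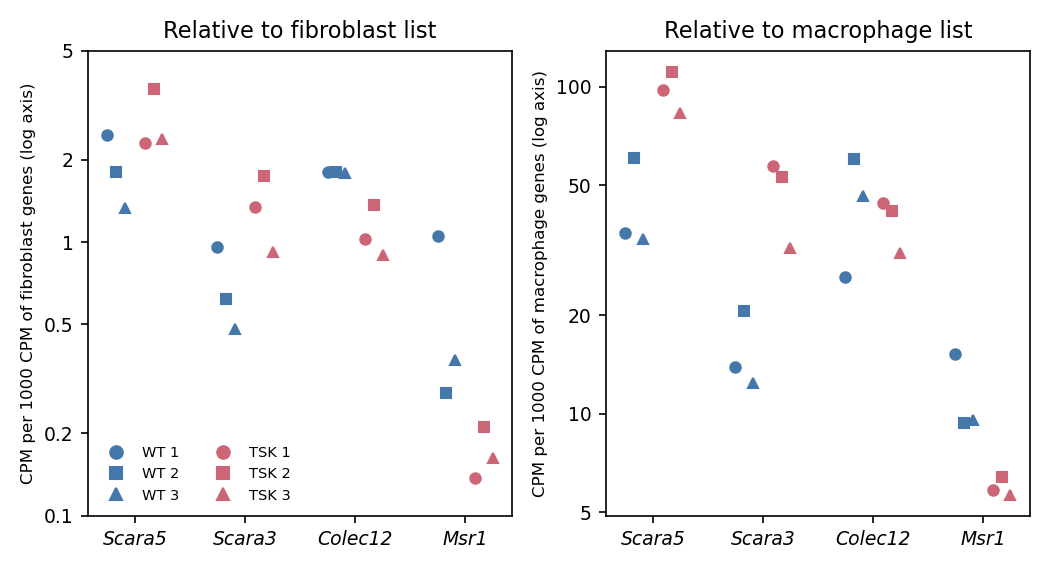
CPM of each gene per 1000 CPM of summed fibroblast markers (left) or macrophage markers (right) in each library, on log axes. Msr1 and Colec12 are lower in TSK relative to the fibroblast markers, Scara3 and Scara5 are higher relative to the macrophage markers, and Msr1 is at 9.36 to 15.2 in WT and at 5.66 to 6.42 in TSK on the macrophage scale.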

How the data were processed

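Bulk RNA from 6 libraries, 3 WT and 3 TSK mice, was used. The authors depleted ribosomal RNA, prepared stranded libraries and sequenced single-end reads of 50 bases. Per the labels and methods, reads were demultiplexed with bcl2fastq 2.19.1.403, aligned with STAR to mm10 and quantified in Partek Flow 11.0 with Ensembl release 100. Whether counting used strand is not given in the sources used here. The deposited table of raw reads holds estimated counts (43.3% to 45.4% of non-zero values were whole within 0.001), which were rounded before testing. A deposited CPM table, scaled by the authors to 1000000 per library with a small offset for genes without counts, was used for levels. The deposited gene ends are 1 base past the GENCODE M21 ends and were reduced by 1.

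Genes were tested with edgeR 4.0.16 in R 4.3.3 (quasi-likelihood, TMM, filterByExpr), with Benjamini-Hochberg adjustment over 19971 genes and a threshold of 0.05. DESeq2 1.42.0 and limma 3.58.1 were alternatives. SE came from the fold change and F statistic. Transcripts were compared with BLAST 2.17.0. Scripts were tested on simulated data.

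The members and the 11 gene lists were chosen with earlier results of these data known. Named genes were the members, Fbn1, tested receptors of other classes, up to 2 called genes with the highest and lowest fold change per list (the 2 largest where none was called), the nearest 3 or 5 profiles, and neighbours within 500 kb; Krt14, Col1a1, Col1a2, Col3a1, Cfd, Fth1, Aif1, Fcgr1, Lyz2, Csf1r and the sex-linked genes were added after their values were seen. Mice are the replicates, and p-values set the difference between genotypes against the spread between mice of the same genotype. The replicate numbers did not pair the mice (correlations of 0.0112, 0.167 and -0.0938). No batch is given in the labels. No other experiment of the study was analysed here. Protein sequences and promoters of the members were not used here.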

Additional observations from a re-analysis of the deposited data

How the results depend on the processing

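The log2 fold changes of Scara5, Colec12 and Msr1 moved by less than the spread between mice under every alternative, and that of Scara3 moved more than this in 2, to 2.70 with library size only and to 2.67 with limma-trend on log2(CPM + 0.1). Per length of the longest transcript, Scara5 was at 4.20 (WT) and 21.8 (TSK) and Msr1 at 1.26 and 1.44 CPM per kb, which placed Msr1 above Scara3 and Colec12 in WT 1. The numbers of genes called over the whole table (542 higher, 136 lower, and 2 receptors of other classes) depended far more on the processing. DESeq2 gave 1136, 411 and 6. Library size only gave 1685 higher and 7 receptors, and no low-count filter gave 1040, 347 and 7. Limma-trend gave 1771 (pseudocount 1) and 1761 (0.1) higher, with 6 receptors each. Upper quartile scaling gave 1 receptor. Marco could be fitted only by DESeq2 and without the filter. Requiring 2.5-fold and an adjusted p under 0.01 gave 51, 7 and 0, and a stricter threshold can only lower these counts. Scarb1 passed that p threshold (edgeR adjusted p = 0.0093) but not the fold threshold. Of the 16 tested receptors, 8 had an unadjusted p below 0.05 in edgeR, as had 3998 of all 19971 tested genes. With the replicate block, 665 genes were called higher, 129 lower and 5 receptors. Leaving out 1 library gave 45 (without WT 3) to 713 (without WT 1) higher, 15 (without WT 3) to 547 (without WT 1) lower and 0 (without WT 3) to 5 (without TSK 1) receptors. For these shifts the cause was not tested. DESeq2's size factors used in edgeR, a minimum of 1 CPM in 3 libraries and removal of adult skeletal muscle genes kept these counts within 1.5 times.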
